A study of Mus musculus with 28 samples.

Results

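The 6 TRAF genes Traf1, Traf2, Traf3, Traf4, Traf5 and Traf6 were followed together with Birc2, Birc3, Tnfaip3 and Cyld, which encode ubiquitin enzymes that act on the NF-kB pathway. These 10 genes were taken by symbol from the 23420 genes of each count table, and all 10 passed the filter on low counts that left 13338 genes for testing. RNA-seq was done on CD4 T cells of male mice aged 6 to 8 weeks. Every mouse carried a gfp reporter at Foxp3, the X-linked gene for the transcription factor that defines regulatory T (Treg) cells. The allele was either Foxp3-gfp (wild type, WT) or Foxp3ΔCNS3-gfp (named KO in the titles), which lacks conserved non-coding sequence 3, an enhancer within Foxp3 known to be bound by c-Rel. The strain and any treatment were not given in the labels. The 28 libraries formed 8 groups, with 3 WT and 4 KO libraries of each of 4 populations. These were thymic Treg cells, thymic non-Treg CD4 single-positive cells (mCD4SP in the titles, CD4SP here), and splenic Treg cells titled rTreg and aTreg. The letters m, r and a are not spelled out there.

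Receptors of the TNF superfamily have no enzyme activity of their own and recruit TRAF proteins when they bind ligand. TRAF2 brings the ubiquitin ligases cIAP1 (Birc2) and cIAP2 (Birc3) to the receptor, and the chains they build assemble the kinases that release NF-kB. In resting cells TRAF2, TRAF3 and the cIAPs together mark the kinase NIK for destruction, which holds the non-canonical pathway off. TRAF6 serves the IL-1 and Toll-like receptors. A20 (Tnfaip3) and CYLD take down the ubiquitin signal, and Tnfaip3 is itself a classic NF-kB target gene. Treg cells carry several TNF receptors, among them GITR, OX40 and 4-1BB, and depend on the NF-kB subunit c-Rel when they form in the thymus.

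The 250 bases before each gene start annotated in RefSeq promoters (GRCm38.p6) were read, in which all 10 genes matched, with 12 windows in total. Birc2 and Tnfaip3 have more than 1 window each, and the Tnfaip3 matches all lie in 1 of its windows. In the annotation used for exon lengths Tnfaip3 runs from 19000910 to 19015657. Most of its matched window (19015411 to 19015660) thus lies inside the gene as annotated there, as does 1 Birc2 window. The kappa-B consensus, the DNA motif bound by NF-kB dimers, was found on either strand in 3 of the 12 windows, those of Traf3, Tnfaip3 and Cyld, against 3.90% of 32851 promoter windows. The AP-1 motif TGANTCA was found in 1 of the 12 windows, that of Tnfaip3, against 6.75% of promoter windows. A match is a description of letters and not evidence of a bound site. The stretches below are shown because they hold every match in these genes, with the matched letters in capitals. They are written 5′ to 3′ on the strand of the gene. The first Tnfaip3 stretch holds the AP-1 match followed by a kappa-B match, which do not overlap. The kappa-B matches of the second Tnfaip3 stretch and of Cyld lie on the opposite strand.
Traf3, chr12:111166340-111166369, plus strand: cgcgcgcccaggcggcccgcGGGGATTTCC
Tnfaip3, chr10:19015522-19015551, minus strand: ccaggTGACTCAcgcgGGGACACCCCgggg
Tnfaip3, chr10:19015411-19015440, minus strand: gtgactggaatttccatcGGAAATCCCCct
Cyld, chr8:88696863-88696892, plus strand: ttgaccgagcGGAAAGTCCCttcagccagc
The Traf3 match ends at the base before the annotated start, and the second Tnfaip3 match holds the same 10 letters read on the other strand.

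The Traf1 window is shown whole because Traf1 and Tnfaip3 were both several-fold higher in Treg cells than in CD4SP cells, and because neither motif was found in it. It is written in lower case throughout, as no letters matched.
Traf1, chr2:34961773-34962022, minus strand: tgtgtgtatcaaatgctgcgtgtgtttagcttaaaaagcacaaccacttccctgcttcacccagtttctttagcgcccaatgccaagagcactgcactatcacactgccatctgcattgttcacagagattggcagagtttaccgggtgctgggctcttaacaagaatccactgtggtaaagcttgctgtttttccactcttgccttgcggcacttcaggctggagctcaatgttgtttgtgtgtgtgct

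Each library held 22037995 to 40754492 counts in genes. Foxp3 stood between 578 and 671 CPM (counts relative to the scaled library total) in WT and between 446 and 613 CPM in KO Treg libraries. In CD4SP libraries it was 3.23 to 3.49 CPM in WT and 1.07 to 1.91 CPM in KO. Exon counts do not check the deletion, which lies outside the exons. The KO thymic Treg libraries differed from WT in more than genotype. Their share of reads in no gene was 42.3 to 45.0% against 46.3 to 49.3%, and 14 myeloid markers summed to 1055 to 1679 CPM against 824 to 979 CPM. The largest part of that sum in WT was Ctss (554 CPM), which WT CD4SP cells also showed (437 CPM), while the macrophage and neutrophil gene Lyz2 averaged 348 CPM in KO and 135 CPM in WT. In the same list S100a8 and S100a9 went the other way, at 0.785 and 0.285 CPM in KO and 2.56 and 1.81 CPM in WT. The 10 dendritic markers summed to 566 to 965 CPM in KO and 495 to 638 CPM in WT. The largest part was Cd74 (571 and 381 CPM), with the defining marker Itgax at 1.32 and 1.04 CPM. Activation markers summed to 1110 to 1436 CPM in KO and 847 to 1033 CPM in WT. KO CD4SP library 2 stood apart, with immature thymocyte markers at 596 CPM against 169 to 195 CPM in the other 6 CD4SP libraries. In bulk RNA, fewer cells of a type and less RNA per cell cannot be told apart.

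Traf1, the TRAF that lacks a ubiquitin ligase domain and pairs with TRAF2, separated CD4SP cells from every Treg population. Its level in CD4SP cells was 80.4, 58.9 and 56.1 CPM in WT libraries 1 to 3 and 72.9, 56.0, 71.1 and 64.9 CPM in KO libraries 1 to 4. In thymic Treg cells it was 192, 171 and 174 CPM in WT and 212, 192, 181 and 208 CPM in KO. No library of the 2 populations overlapped. The log2 fold change of thymic Treg over CD4SP was 1.46 in WT (SE 0.118, edgeR adjusted p = 2.83e-11) and 1.58 in KO (SE 0.103, adjusted p = 1.48e-13). Among Treg populations Traf1 did not move past the test. Its group means there lay between 179 and 198 CPM, and neighbouring groups overlapped throughout.

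In the comparison of thymic Treg with CD4SP cells, 8 of the 10 genes passed the test in WT, 7 higher and 1 lower, where 48.3% of all tested genes passed, 26.8% higher and 21.6% lower. In KO 8 passed as well, 6 higher and 2 lower, against 56.5% of all genes, 30.0% higher and 26.5% lower. WT and KO share no library in these 2 contrasts, and 7 genes were called the same way in both. Traf1, Traf2, Traf3, Traf6, Birc3 and Tnfaip3 were higher in thymic Treg cells, and Cyld was lower. The median log2 fold change of the 10 genes was 0.36 in WT and 0.27 in KO, against 0.03 and 0.01 over all genes tested. Marker sums of other cell types differed between these populations too. The dendritic sum was 495 to 638 CPM in WT thymic Treg and 116 to 153 CPM in WT CD4SP libraries, and 566 to 965 CPM against 120.3 to 335 CPM in KO. The myeloid sum was 824 to 979 CPM against 510.5 to 561 CPM in WT, and 1055 to 1679 CPM against 531 to 699 CPM in KO. In WT, Cd74 averaged 381 CPM in thymic Treg and 48.0 CPM in CD4SP cells, Bst2 77.4 and 72.3 CPM, and Itgax 1.04 and 0.030 CPM. The part of the dendritic sum in the results was not tested.

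Tnfaip3, whose product A20 shuts NF-kB signalling down, had the widest range of the 10 genes. In CD4SP cells it read 35.3, 28.4 and 35.6 CPM in WT and 35.8, 40.3, 40.2 and 39.4 CPM in KO. In thymic Treg cells it read 100.9, 109 and 112 CPM in WT and 128, 139, 106 and 127 CPM in KO. Every thymic Treg library lay above every CD4SP library. The log2 fold change was 1.70 in WT (SE 0.151, edgeR adjusted p = 2.09e-10) and 1.68 in KO (SE 0.131, adjusted p = 7.91e-12).

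Splenic Treg cells held more Tnfaip3 again. In rTreg cells the level was 271, 186 and 185 CPM in WT and 271, 253, 213 and 217 CPM in KO. In aTreg cells it was 239, 192 and 144 CPM in WT and 246, 262, 224 and 215 CPM in KO. All 14 splenic libraries were above all 7 thymic Treg libraries, while rTreg and aTreg overlapped. The rise from thymic Treg to rTreg was 0.997 on the log2 scale in WT (edgeR adjusted p = 6.13e-06) and 0.93 in KO (adjusted p = 1.18e-06). The KO call was lost with the no-gene read share as a covariate (0.57, edgeR adjusted p = 0.128) and in a fit that held the myeloid sum (1.12, adjusted p = 0.0845). Genes of the handling stress list, which includes Fos, Jun and Zfp36, summed to 2144 to 3630 CPM in splenic Treg libraries and 1132 to 1397 CPM in thymic ones. The list was mixed. In WT, Fos averaged 298 CPM in rTreg and 14.2 CPM in thymic Treg cells, but Nr4a1 175 and 320 CPM and Egr1 51.8 and 69.4 CPM. The part of the handling stress list in the difference was not tested. Tissue and population cannot be told apart for thymic against splenic Treg cells.

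**Figure D1:**
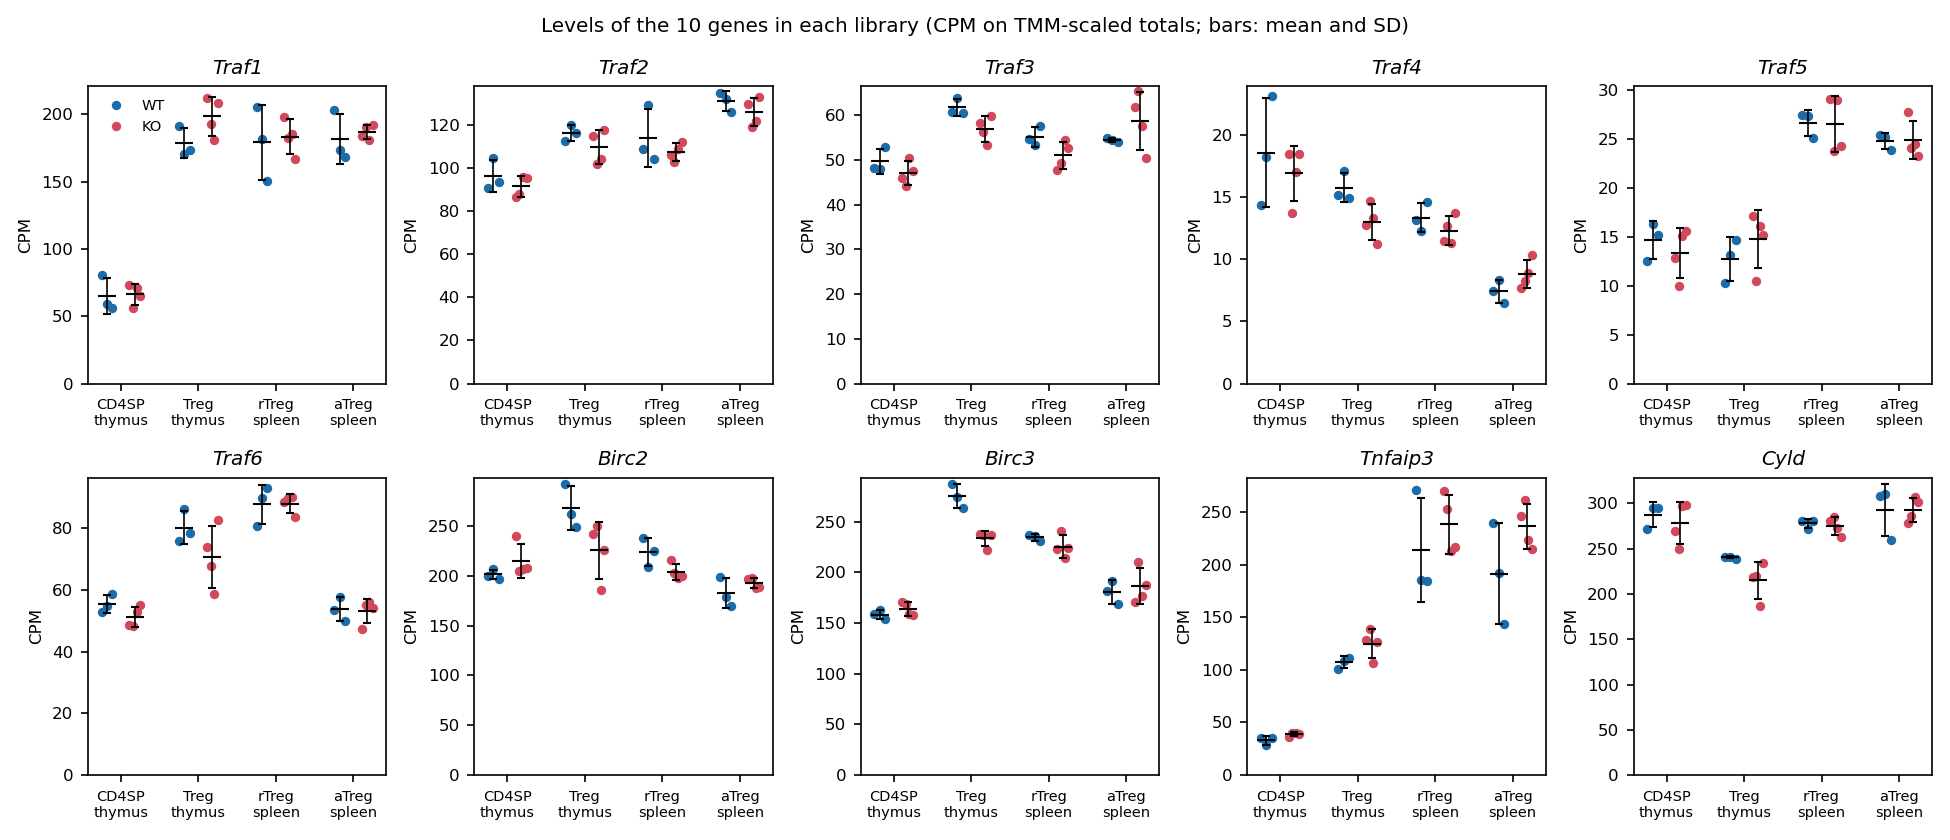
Levels of the 10 genes in CPM (vertical axis, from 0) in each library, by population on the horizontal axis, with WT in blue and KO in red; points are libraries and black bars the mean and SD of 3 WT or 4 KO libraries. Traf1 is low in CD4SP cells alone, Tnfaip3 climbs from CD4SP to thymic to splenic Treg cells, Traf5 is high in both splenic populations, and Traf6 is high in thymic Treg and rTreg cells.

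Traf5, an adaptor of CD27 and OX40 related to TRAF2, was higher in both splenic Treg populations than in thymic cells. Thymic Treg libraries held 10.3, 13.1 and 14.7 CPM in WT and 17.2, 10.4, 16.1 and 15.2 CPM in KO. In rTreg cells the level was 27.5, 27.3 and 25.1 CPM in WT and 29.1, 23.8, 29.004 and 24.3 CPM in KO. In aTreg cells it was 25.4, 25.2 and 23.9 CPM in WT and 27.8, 24.1, 24.5 and 23.3 CPM in KO. All splenic libraries lay above all thymic libraries, CD4SP included (9.95 to 16.3 CPM). From thymic Treg to rTreg Traf5 rose by 1.07 on the log2 scale in WT (SE 0.158, edgeR adjusted p = 7.84e-06) and by 0.85 in KO (SE 0.137, adjusted p = 1.57e-05). Thymic Treg and CD4SP cells did not differ past the test (-0.21 in WT and 0.14 in KO). With the myeloid marker sum as a covariate the KO value was -0.21 (adjusted p = 0.81) and the WT value 0.55 (adjusted p = 0.0724), so the rise from thymic Treg to rTreg lost its call in both. In the same fit the KO value of aTreg over thymic Treg was 0.04 (edgeR adjusted p = 0.937), also without a call. There KO thymic Treg cells were called higher than KO CD4SP cells (1.12, adjusted p = 0.00879). The myeloid sum was itself lower in rTreg cells (529 to 589 CPM) than in thymic Treg cells. The antisense gene Gm26879 covers 4.49% of the Traf5 exons, and reads of the pair cannot be told apart without strand.

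Between rTreg and thymic Treg cells 5 of the 10 genes passed in WT, 3 higher and 2 lower, where 30.6% of all genes passed, 13.9% higher and 16.7% lower. In KO 4 passed, all higher, against 42.9% of all genes, 19.6% higher and 23.3% lower. Traf5, Tnfaip3 and Cyld were higher in rTreg cells in both genotypes. Birc2 (-0.26) and Birc3 (-0.23) were called lower in WT and Traf6 (0.31) higher in KO. Each of these 3 calls was lost in a fit that held the myeloid sum, and both WT calls without WT thymic Treg library 1. The median log2 fold change of the 10 genes was -0.01 in WT and -0.04 in KO, next to -0.01 and -0.02 over all genes.

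Traf6, the ligase of the IL-1 and Toll-like receptor pathways, marked thymic Treg and rTreg cells against aTreg and CD4SP cells. In rTreg cells it read 80.7, 89.7 and 92.8 CPM in WT and 88.6, 89.7, 89.96 and 83.5 CPM in KO. In aTreg cells it read 53.5, 57.7 and 49.96 CPM in WT and 47.3, 55.0, 56.0 and 54.2 CPM in KO. No aTreg library reached an rTreg library. The aTreg level was lower by a log2 fold change of -0.71 in WT (SE 0.0931, edgeR adjusted p = 6.58e-07) and -0.73 in KO (SE 0.0809, adjusted p = 3.31e-08). These aTreg values overlapped those of CD4SP cells, at 48.2 to 58.6 CPM over both genotypes. Thymic Treg cells stood at 58.8 to 86.1 CPM, above CD4SP by 0.53 in WT (adjusted p = 2.57e-05) and 0.47 in KO (adjusted p = 1.60e-05).

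Traf4, which differs from the other TRAFs in having few known TNF receptor partners, was also lowest in aTreg cells. It read 7.43, 8.36 and 6.51 CPM in WT aTreg and 7.70, 8.28, 8.89 and 10.4 CPM in KO aTreg libraries. The rTreg libraries held 13.2, 12.3 and 14.6 CPM in WT and 11.5, 12.7, 11.4 and 13.8 CPM in KO. No library of these populations overlapped. The log2 fold change of aTreg over rTreg was -0.85 in WT (SE 0.154, edgeR adjusted p = 6.54e-05) and -0.48 in KO (SE 0.133, adjusted p = 0.00458). The highest Traf4 levels were in CD4SP cells, at 13.7 to 23.2 CPM, and thymic Treg cells were called lower than these in KO (-0.38, adjusted p = 0.0136), with a value of -0.24 in WT (adjusted p = 0.179). The KO call was lost in a fit that held the myeloid sum (-0.59, adjusted p = 0.225 with edgeR), and without KO thymic Treg library 4 (-0.31, adjusted p = 0.0575).

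Traf2, the adaptor that brings in the cIAPs, varied little, with group means from 91.4 CPM in KO CD4SP to 131 CPM in WT aTreg cells. It was higher in thymic Treg than CD4SP cells by 0.27 in WT (edgeR adjusted p = 0.00422) and 0.26 in KO (adjusted p = 0.00133). It was higher in aTreg than rTreg cells by 0.23 in KO (adjusted p = 0.00688) and by 0.20 in WT (adjusted p = 0.0372). The WT call was lost in 8 of 15 other settings, 4 of which left out 1 library each, and the KO call with the no-gene read share as a covariate (0.15, edgeR adjusted p = 0.195). Traf3, the partner of TRAF2 in the control of NIK, had the narrowest range, from 47.1 to 61.8 CPM between group means. It was higher in thymic Treg than CD4SP cells by 0.31 in WT (adjusted p = 0.00147) and 0.27 in KO (adjusted p = 0.00111). The WT call of Traf3 was lost with the no-gene read share as a covariate (0.24, edgeR adjusted p = 0.0543), and the KO calls of Traf3 (0.46, 0.0535) and Traf2 (0.42, 0.0702) in a fit that held the myeloid sum. In KO Traf3 was also higher in aTreg than rTreg cells (0.20, adjusted p = 0.0167), a call lost without rTreg library 1, aTreg library 1 or aTreg library 2.

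Birc2 and Birc3 encode cIAP1 and cIAP2 and lie 11634 bases apart on chromosome 9, on the minus strand (Birc2 at 7818227 to 7837064, Birc3 at 7848699 to 7873186, GRCm38). Birc3 was highest in WT thymic Treg cells, at 287, 275 and 263 CPM. CD4SP cells held 159, 162 and 154 CPM in WT and 171, 169, 159 and 158 CPM in KO. The thymic Treg level was above CD4SP in every library of both genotypes, with log2 fold changes of 0.80 in WT (SE 0.0673, edgeR adjusted p = 6.78e-11) and 0.51 in KO (SE 0.0582, adjusted p = 1.91e-08). In aTreg cells Birc3 was lower again, at 182, 192 and 169 CPM in WT and 171, 210.5, 177 and 188 CPM in KO. Against rTreg cells this was -0.38 in WT (adjusted p = 5.36e-05) and -0.27 in KO (adjusted p = 0.000411). In the CD4SP comparison the KO call was lost with the myeloid sum as a covariate (0.36, adjusted p = 0.0716).

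Birc2 differed less between populations. It read 292, 263 and 249 CPM in WT thymic Treg cells and 200.2, 207 and 197 CPM in WT CD4SP cells, without overlap (log2 fold change 0.41, edgeR adjusted p = 0.000231). With the myeloid sum as a covariate that value was 0.15 (adjusted p = 0.395). In KO the thymic Treg libraries read 242, 249.9, 185 and 226 CPM and the CD4SP libraries 239.7, 205, 207 and 208 CPM, which overlapped (0.07, adjusted p = 0.429). The aTreg level was below thymic Treg in WT (-0.55, adjusted p = 7.10e-06) and in KO (-0.23, adjusted p = 0.0154). The KO call did not hold without KO thymic Treg library 1 or 2, without both, or with the myeloid sum as a covariate, where the value was 0.08 (adjusted p = 0.748).

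Cyld, a deubiquitinase that removes the chains the ligases build, was lower in thymic Treg than CD4SP cells in both genotypes. Thymic Treg libraries held 241, 241 and 239 CPM in WT and 219, 220.4, 186 and 235 CPM in KO. All CD4SP libraries were above these, at 272, 295 and 295 CPM in WT and 269.5, 249, 297 and 298 CPM in KO. The log2 fold change was -0.26 in WT (SE 0.0776, edgeR adjusted p = 0.00747) and -0.37 in KO (SE 0.0674, adjusted p = 3.14e-05). Cyld was higher in rTreg than thymic Treg cells by 0.36 in KO (adjusted p = 0.000123) and by 0.21 in WT (adjusted p = 0.0417). The WT call was lost when any 1 of the 6 libraries was left out, and every call of Cyld between thymic Treg cells and CD4SP or rTreg cells was lost in a fit that held the myeloid sum. The values there kept their direction, at -0.20 in WT and -0.28 in KO against CD4SP (edgeR adjusted p = 0.243 and 0.256) and at 0.16 and 0.26 for rTreg over thymic Treg cells (0.407 and 0.523).

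Between aTreg and rTreg cells 5 of the 10 genes passed in WT, 1 higher and 4 lower, where 37.9% of all genes passed, 19.9% higher and 18.1% lower. In KO 5 passed, 2 higher and 3 lower, against 41.6%, 21.7% higher and 19.9% lower. Traf2 was higher and Traf4, Traf6 and Birc3 lower in both genotypes. Birc2 was called lower in WT (-0.29, edgeR adjusted p = 0.00763), with a value of -0.08 in KO, and the WT call was lost without WT aTreg library 3. Traf1, Traf5, Tnfaip3 and Cyld did not pass in either, and their 8 log2 fold changes lay between -0.16 and 0.09. The dendritic sum was 798 to 1447 CPM in aTreg and 334 to 459 CPM in rTreg libraries of WT, and 869 to 1023 CPM against 389 to 528 CPM in KO. The myeloid sum was 792 to 867 CPM against 565 to 589 CPM in WT, and 708 to 749.8 CPM against 529 to 583 CPM in KO. Most of the dendritic sum in WT aTreg cells was Cd74 (815 CPM, and 266 CPM in WT rTreg cells), with Itgax at 2.30 and 0.531 CPM. Whether the dendritic sum has a part in these differences was not tested. Between aTreg and thymic Treg cells 7 genes passed in WT, 3 higher and 4 lower, against 40.3% of all genes, 19.9% higher and 20.4% lower. In KO 8 passed, 4 higher and 4 lower, against 41.9%, 20.6% higher and 21.3% lower. Of these, 7 passed the same way in both. Traf5, Tnfaip3 and Cyld were higher in aTreg cells, and Traf4, Traf6, Birc2 and Birc3 lower. Traf2 had a value of 0.17 in WT (edgeR adjusted p = 0.0687), which passed with RLE size factors (adjusted p = 0.0428), with only the groups compared (0.0432), with DESeq2 (0.0494) and with a replicate block within genotype (0.0261). Its KO call was lost in a fit that held the myeloid sum (0.082, edgeR adjusted p = 0.725), without KO thymic Treg library 2 or 3, without libraries 1 and 2 together, and without aTreg library 4. The contrasts of rTreg and aTreg with thymic Treg cells share the thymic libraries.

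**Figure D2:**
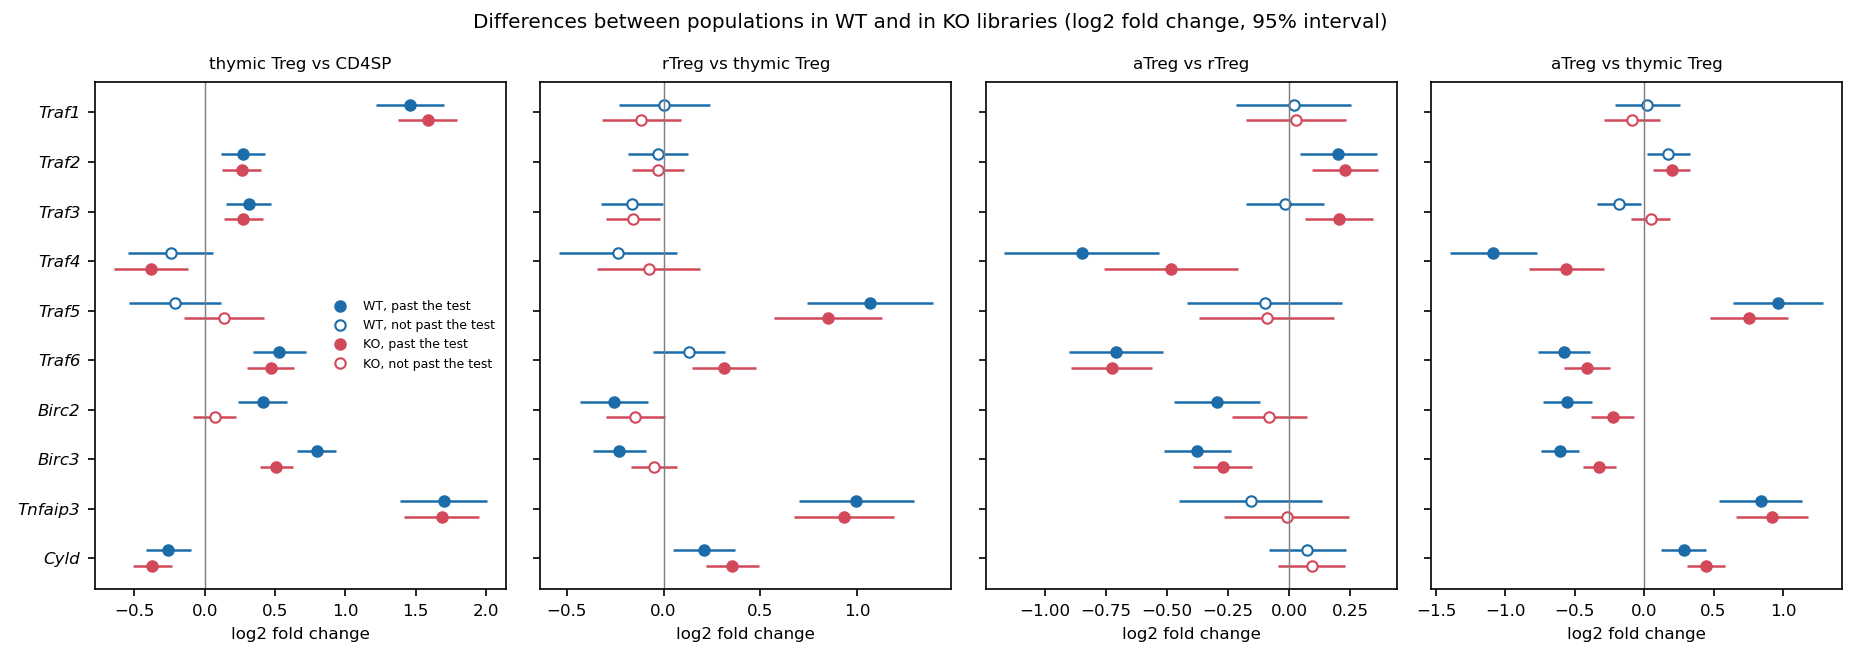
Log2 fold change between populations (horizontal axis, 95% interval as lines) for each of the 10 genes in WT (blue) and KO (red) libraries; filled points passed the edgeR test and open points did not. Traf1 and Tnfaip3 stand furthest to the right for thymic Treg against CD4SP (1.46 and 1.70 in WT), and Traf4 and Traf6 to the left for aTreg against rTreg (-0.85 and -0.71 in WT).

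KO and WT cells were compared within each population to ask how far the missing enhancer alters these genes. Among thymic Treg libraries 2 of the 10 genes passed, both lower in KO, where 9.34% of all genes passed and 5.13% were lower. Birc3 read 238, 237, 222 and 237 CPM in KO against 287, 275 and 263 CPM in WT, without overlap (log2 fold change -0.24, SE 0.0622, edgeR adjusted p = 0.0166). Birc2 averaged 226 ± 28.7 CPM in KO (SD, n = 4) against 268 ± 22.2 CPM in WT (n = 3). KO library 2, at 249.9 CPM, lay just above the lowest WT library at 249.1 CPM (-0.25, SE 0.0798, adjusted p = 0.0479). As a ratio, Birc3 stood at 0.849 and Birc2 at 0.842 of the WT level.

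Neither call held throughout. The Birc3 call was lost without WT library 1 (-0.21, edgeR adjusted p = 0.1), WT library 2 (-0.24, 0.0585) or KO library 3 (-0.21, 0.0551), and without KO libraries 1 and 2 together (-0.26, 0.057). The Birc2 call was lost without WT library 1 (-0.18, edgeR adjusted p = 0.258), WT library 2 (-0.26, 0.105), KO library 3 (-0.16, 0.172) or KO library 4 (-0.25, 0.0599). With the no-gene read share as a covariate the values were -0.19 for Birc3 (adjusted p = 0.549) and -0.10 for Birc2 (adjusted p = 0.882). With the myeloid sum as a covariate they were -0.31 (adjusted p = 0.0954) and -0.45 (adjusted p = 0.0377). Genotype and each of these measures separate the same 7 libraries, so they cannot be told apart.

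The other 8 genes did not pass in thymic Treg cells. Cyld (-0.16, 95% interval -0.31 to -0.01, edgeR adjusted p = 0.156) and Traf4 (-0.28, -0.56 to 0.01, adjusted p = 0.199) had all KO libraries below all WT libraries. Traf3 did too, at 53.3 to 59.9 CPM in KO and 60.6 to 64.0 CPM in WT (-0.12, adjusted p = 0.307). The share of all genes separated this way was not counted. Traf6 had a log2 fold change of -0.18 (adjusted p = 0.184), with KO library 4 at 82.6 CPM inside the WT range. Without that library Traf6 was called lower (-0.26, edgeR adjusted p = 0.0396). Traf1 (0.15, -0.07 to 0.37), Traf5 (0.21, -0.09 to 0.52) and Tnfaip3 (0.22, -0.06 to 0.50) had values above 0, and Traf2 was at -0.08. The median over the 10 genes was -0.14, next to 0.02 over all genes tested.

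In CD4SP, rTreg and aTreg cells 0 of the 10 genes passed with edgeR, DESeq2 or voom, where 0.195%, 0.135% and 0.0300% of all genes passed with edgeR. At an unadjusted p under 0.05 the counts were 0, 0 and 1, with no share of all genes taken at that threshold. The 1 was Tnfaip3 in aTreg cells, at 237 ± 21.3 CPM in KO and 192 ± 47.9 CPM in WT (log2 fold change 0.30, 95% interval 0.03 to 0.58, adjusted p = 0.695). Its groups overlapped, as the WT libraries ran from 144 to 239 CPM. In CD4SP cells Tnfaip3 was 0.24 (-0.06 to 0.53), with every KO library above every WT library, a separation not counted over all genes. In rTreg cells Tnfaip3 was 0.16 (-0.12 to 0.43). None of its 4 values passed the test. The handling stress sum was 2310 to 2895 CPM in KO and 2144 to 2284 CPM in WT aTreg libraries. In the other populations KO and WT overlapped. In that list Hspa1a averaged 56.4 CPM in KO and 4.34 CPM in WT aTreg cells, and 16.3 and 1.53 CPM in CD4SP cells. In rTreg cells Fos averaged 562 CPM in KO and 298 CPM in WT, but Zfp36 682 and 775 CPM. The part of this list in the Tnfaip3 values was not tested. The 95% intervals of Birc3 were -0.08 to 0.18 in CD4SP, -0.19 to 0.07 in rTreg and -0.08 to 0.18 in aTreg cells. Those of Birc2 were -0.07 to 0.26, -0.30 to 0.03 and -0.09 to 0.24.

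**Figure D3:**
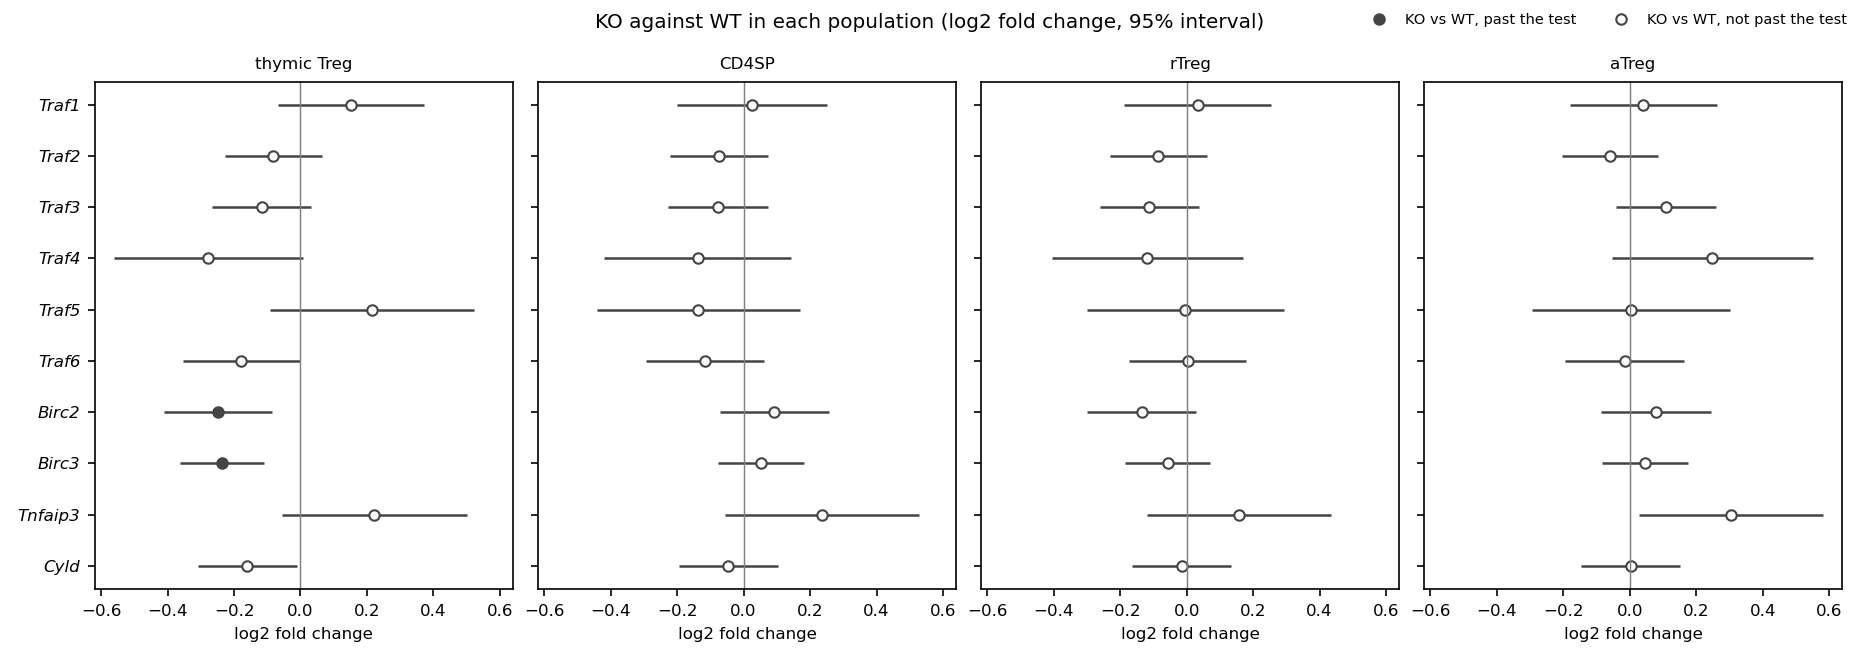
Log2 fold change of KO over WT (horizontal axis, 95% interval as lines) for each of the 10 genes in the 4 populations; filled points passed the edgeR test and open points did not. Birc2 (-0.25) and Birc3 (-0.24) in thymic Treg cells are the filled points, and Tnfaip3 lies between 0.16 and 0.30 in the 4 panels without passing in any.

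The KO effects were also compared between populations, with the difference itself as the test. With edgeR 0 of the 10 genes passed for thymic Treg minus CD4SP (0.615% of all genes), aTreg minus rTreg (0%), rTreg minus thymic Treg (0.0300%) and aTreg minus thymic Treg (0.847%). At an unadjusted p under 0.05 the counts were 2, 1, 0 and 4, with no share of all genes taken at that threshold. For thymic Treg minus CD4SP, the difference was -0.29 for Birc3 (SE 0.0886, adjusted p = 0.127) and -0.34 for Birc2 (SE 0.113, adjusted p = 0.161). DESeq2 called Birc3 there (adjusted p = 0.0381) and no other gene in the 4 differences, and voom called none. For aTreg minus thymic Treg the 4 were Birc3 (0.28, adjusted p = 0.116), Birc2 (0.33, 0.147), Traf4 (0.53, 0.186) and Traf3 (0.23, 0.27). A replicate block within genotype called Birc3 there (0.28, edgeR adjusted p = 0.0493), and a fit that held the myeloid sum called Birc2 for thymic Treg minus CD4SP (-0.49, adjusted p = 0.0432). In the main edgeR fit, without block or covariate, no difference of KO effects between populations passed for the cIAP genes.

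Levels of different genes were compared per length, as CPM per kilobase of the union of annotated exons. Birc2 and Birc3 held the first and second place in all 8 groups, with Birc3 first in KO rTreg cells. In WT thymic Treg cells they stood at 58.5 and 54.9 CPM per kilobase, followed by Traf2 (22.8), Traf1 (20.3), Cyld (19.1) and Tnfaip3 (14.8). Traf6 (10.2), Traf3 (8.41), Traf4 (4.79) and Traf5 (2.78) were lowest. In WT CD4SP cells Tnfaip3 held the ninth place, at 4.58 CPM per kilobase, and in WT rTreg cells the third, at 29.6. Of the summed per-length level of the 6 TRAF genes, Traf1 made up 15.1% in WT CD4SP and 29.3% in WT thymic Treg cells, while Traf2 made up 38.6% and 32.9%. The order depends on the length used. With the longest transcript in place of the exon union, WT thymic Treg values were 94.5 CPM per kilobase for Birc3, ahead of Birc2 at 80.5, then 52.0 for Traf1, 29.99 for Cyld, 28.2 for Traf2 and 17.3 for Tnfaip3. Traf6 (12.99) and Traf3 (8.75) came next, and Traf5 (6.10) lay above Traf4 (4.90).

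Ratios of counts within a library do not depend on scaling between libraries, and 3 pairs of related genes were chosen for this after their values were seen, so no test is given. The ratio of Traf1 to Traf2 counts averaged 0.684 in WT and 0.725 in KO CD4SP cells and lay between 1.38 and 1.81 in the 6 Treg groups. Tnfaip3 to Cyld, the inhibitory pair, averaged 0.116 in WT CD4SP, 0.446 in WT thymic Treg, 0.769 in WT rTreg and 0.649 in WT aTreg cells. The KO averages were 0.141, 0.582, 0.865 and 0.810 in the same order. In thymic Treg cells the KO libraries (0.542 to 0.629) lay above the WT libraries (0.418 to 0.468). Birc3 to Birc2 averaged 0.786 in WT and 0.766 in KO CD4SP cells and 0.967 to 1.11 in the Treg groups.

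**Figure D4:**
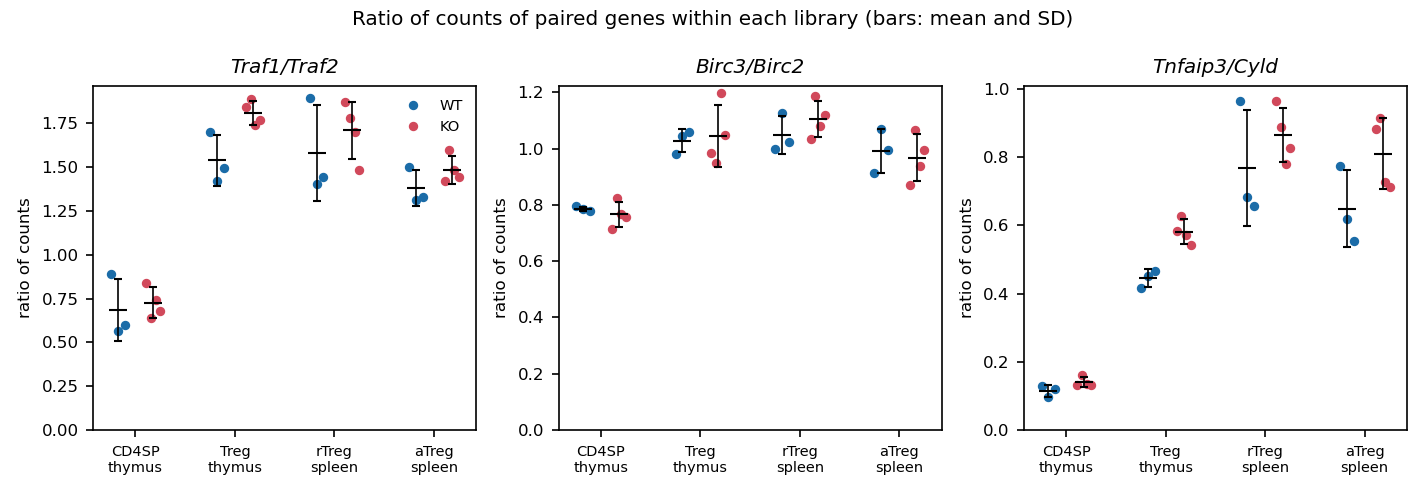
Ratio of counts of Traf1 to Traf2, Birc3 to Birc2 and Tnfaip3 to Cyld within each library (vertical axes, from 0), by population, with WT in blue and KO in red; points are libraries and black bars the mean and SD. CD4SP libraries are below all Treg libraries in each panel, and only Tnfaip3 to Cyld also separates thymic from splenic Treg libraries in each genotype.

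Traf1 and Tnfaip3 shared their low level in CD4SP cells and little else. Because the libraries fall into separate clusters, the correlation of their log2 levels was taken within the Treg libraries. It was 0.102 by Pearson and 0.200 by Spearman over 21 libraries, which share populations and are not independent points. Birc2 and Birc3 moved more closely, with Pearson 0.848 and Spearman 0.890 over the same 21 libraries. Within the 7 CD4SP libraries the values for Birc2 and Birc3 were 0.726 and 0.393.

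**Figure D5:**
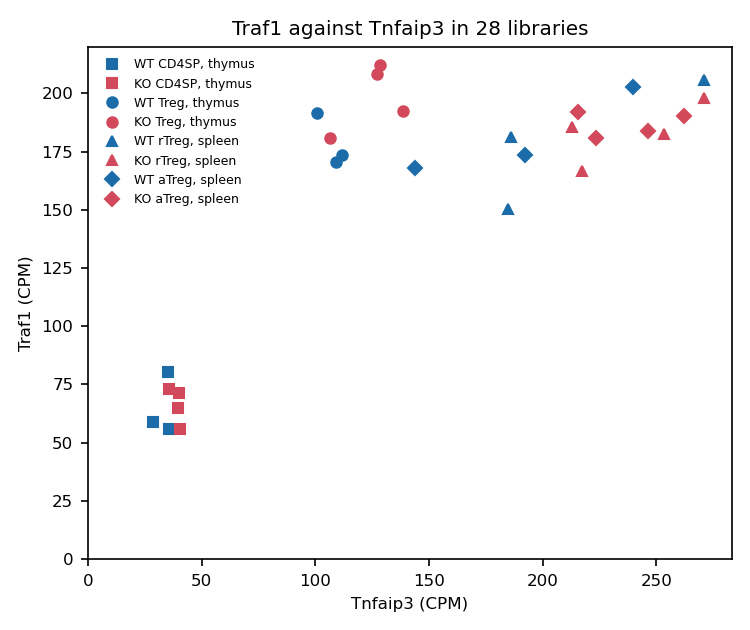
Traf1 against Tnfaip3, both in CPM with axes from 0, in all 28 libraries; colours give genotype and symbols the population. The 7 CD4SP libraries lie at the lower left, and among the 21 Treg libraries Tnfaip3 runs from 100.9 to 271 CPM while Traf1 stays between 150.4 and 212 CPM.

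The genes whose log2 levels most resembled those of each gene over all 28 libraries were found among 8951 genes with at least 8 CPM in some group. By Pearson correlation they were Tagap (0.976), Slc12a8 (0.976) and Tiam1 (0.975) for Traf1. For Tnfaip3 they were Pde2a (0.984), Gbp3 (0.976) and Lca5 (0.975). Traf5 was most like Itgb7 (0.942), Abcc4 (0.940) and Lpcat4 (0.927), and Traf6 like Zdhhc20 (0.947), Inadl (0.935) and Myc (0.929). For Birc3 they were Ift80 (0.952), Wnt3 (0.951) and Tom1l2 (0.948), and for Traf4 Tet3 (0.928), Mllt3 (0.925) and Sbk1 (0.924). Cyld was most like Arhgef6 (0.916), Mbnl1 (0.911) and Elf4 (0.906), and Traf2 like Plekhb2 (0.906), Arhgap31 (0.902) and Slc41a1 (0.902). The values were lower for Traf3, with Nfe2l1 (0.852), Fryl (0.812) and Pik3r2 (0.808), and for Birc2, with Hbp1 (0.853), Secisbp2l (0.820) and Chd6 (0.814). All these values span separate clusters of libraries, so differences between populations alone can make them high. Traf1 and Tnfaip3 themselves correlated at 0.906 over the 28 libraries and at 0.102 within the Treg libraries. The listed likeness was not taken within populations.

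Other genes of the pathway were counted in 4 lists, chosen with earlier results of these data known. Of 14 TNF receptors, which recruit the TRAFs, 11 were higher and 2 lower in WT thymic Treg than CD4SP cells, where 48.3% of all tested genes passed. Tnfrsf4 (OX40) rose by 3.72 on the log2 scale, from 107 to 1403 CPM, Tnfrsf18 (GITR) by 2.72 and Tnfrsf9 (4-1BB) by 4.18. Their median log2 fold change was 1.73, next to 0.36 for the 10 genes above. Of 11 NF-kB subunits and inhibitors 10 were higher and 0 lower, including Rel (c-Rel, 1.95) and Nfkb2 (1.67) and the inhibitor Nfkbie (0.96). Of 20 other ubiquitin regulators tested 8 were higher and 1 lower, among them the A20-binding Tnip1 (1.12) and Tnip3 (4.89, from 0.197 to 6.54 CPM), and the deubiquitinase Otud7b (0.69). Of 20 kinases and adaptors 4 were higher and 3 lower, with the TRAF-binding Tank at 0.78 and Traf3ip3 at 0.42, and the paracaspase Malt1 at -0.81. KO libraries gave 12 higher and 2 lower, 11 and 0, 8 and 5, and 4 and 5 in the same lists, where 56.5% of all genes passed.

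In WT aTreg against rTreg cells the receptors were again mostly higher, with 8 higher and 1 lower of 14 where 37.9% of all genes passed, including Tnfrsf1b (TNFR2) at 1.91, Tnfrsf9 at 1.66 and Tnfrsf4 at 1.09. The NF-kB list had 4 higher and 1 lower, with Nfkbiz at -0.51, Nfkbid at 0.35 and Nfkb2 at 0.54. Kinases and adaptors had 3 higher and 7 lower, with Malt1 at 1.06, Map3k14 (NIK) at -0.88 and Map3k5 at 0.61. Ubiquitin regulators had 5 higher and 4 lower, with Tnip3 at 2.17, Usp18 at -1.15 and Otud7b at 0.48. In WT rTreg against thymic Treg cells 1 receptor was higher and 8 were lower, where 30.6% of all genes passed, and OX40 (Tnfrsf4) had a value of -1.30, 4-1BB (Tnfrsf9) of -1.40 and GITR (Tnfrsf18) of -0.87. The NF-kB list there had 1 higher, Nfkbiz (0.78), and 6 lower, among them Nfkb2 (-0.85) and Rel (-0.61). Tnfaip3 rose in the same comparison.

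In KO against WT thymic Treg cells, where 562 of 13338 genes were higher, 3 of the 14 receptors were higher, Tnfrsf18 (0.29, edgeR adjusted p = 0.00548), Tnfrsf4 (0.31, adjusted p = 0.00768) and Tnfrsf13c (0.78, adjusted p = 0.0239). The last, the BAFF receptor, best known on B cells, stood at 3.28 CPM in KO and 1.90 CPM in WT, and the 9 B cell markers summed to 50.1 to 54.8 CPM in KO and 35.1 to 38.4 CPM in WT. Its part in the result was not tested. Of 20 kinases and adaptors 1 passed, the adaptor Tradd, which rose by 0.33 (adjusted p = 0.00402). Of 20 ubiquitin regulators 1 passed, Xiap, an inhibitor of apoptosis related to the cIAPs, which fell by 0.30 (adjusted p = 0.0241). Over all genes 9.34% passed. The alternatives were not run for single genes of these lists, and calls over all genes there ranged from 45 to 1717. The NF-kB list had 0 of 11 past the test. In CD4SP cells Tnfrsf9 was higher in KO (0.54, adjusted p = 0.033) and no other member of the 4 lists passed, and in rTreg and aTreg cells none passed. The difference of KO effects between thymic Treg and CD4SP cells was called for Tradd (0.43, adjusted p = 0.0344).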

How the data were processed

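RNA was taken up in TRIzol, amplified with the SMART method and sequenced in pairs on a HiSeq, per the labels' protocols. Trimmomatic, STAR and HTSeq are named with the genome build mm10, per the submitters' processing notes; no version and no strand setting is given in the sources used here. Values deposited were raw counts per gene, 1 table per library. Rows for reads in no gene and other summary rows stayed out of library sizes and tests. The no-gene share (42.3 to 49.7%) was taken over a total that left out multi-mapped reads.

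Counts of all 28 libraries were fitted together with edgeR 4.0.16 in R 4.3.3, with 8 group means, TMM factors (0.970 to 1.04) and 20 residual degrees of freedom. Of 23420 genes 13338 passed filterByExpr. The quasi-likelihood test was adjusted by Benjamini-Hochberg over all genes tested, at a threshold of 0.05. CPM used TMM-scaled totals, and values after ± are SDs over 3 WT or 4 KO libraries. The script was run on simulated counts as a check of its code. Alternatives were DESeq2 1.42.0, voom in limma 3.58.1, other scaling and filtering, covariates, a replicate block and leaving out libraries.

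Every member was named. At most 3 genes of each pathway list, those with the smallest p, and the 3 most alike genes per member by Pearson correlation (at least 8 CPM in some group) were named. Members and lists were chosen with earlier results of these data known. The 28 libraries differed from one another by more than sampling noise within every group. The labels do not tie libraries to single mice, so p-values measure the spread between these libraries, which may be technical. Same-numbered libraries deviated together, with every correlation over 0.1, for WT thymic Treg with CD4SP (0.107 to 0.133). The same held for KO aTreg with rTreg (0.121 to 0.232). In the other 10 comparisons at least 1 correlation was lower. Even so, all 3 libraries matched their own number best for WT aTreg with rTreg (0.058 to 0.212) and with thymic Treg (0.074 to 0.173). Between KO and WT the values ran as low as -0.096 (CD4SP). The main fit held no replicate block.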

Additional observations from a re-analysis of the deposited data

Results flagged for a closer look

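In groups of 4 libraries, 1 library was far from the other 3 in 2 of 40 cases, by Dixon's gap over range above 0.829, which chance gives in about 1 in 20. Birc2 in KO CD4SP library 1 stood at 239.7 CPM against 204.7 to 207.9 CPM in the other 3 (gap over range 0.909). Birc3 in KO thymic Treg library 3 stood at 222 CPM against 236.6 to 238.0 CPM (0.912), and without that library the Birc3 difference between KO and WT lost its call.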

How the results depend on the processing

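Of 52 called values of single genes, 24 kept their call in every alternative run and 28 lost it in at least 1. The thymic Treg and CD4SP comparisons of Traf1, Traf6 and Tnfaip3 kept theirs in both genotypes. For KO against WT thymic Treg cells, 2 of the 10 genes were called. The count was 1 with RLE size factors, with only the groups compared, without KO libraries 1 and 2 and in a fit that held the myeloid marker sum, and 0 in a fit that held the no-gene read share. Leaving out 1 library gave 0 to 2, with 0 without WT library 1, WT library 2 or KO library 3.

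With the myeloid sum as a covariate the counts called were 1 in place of 5 for rTreg over thymic Treg in WT and 0 in place of 4 in KO. They were 4 in place of 8 for KO thymic Treg over CD4SP, among them Traf5, which the main fit did not call. For KO aTreg over thymic Treg the count was 2 in place of 8. It was 1 in place of 0 (Birc2) for the difference of KO effects between thymic Treg and CD4SP cells. Traf5 in KO rTreg over thymic Treg became -0.21 and Birc2 in KO aTreg over thymic Treg 0.078, both reversed and not called. In the fit with the no-gene read share 1 gene was called for KO rTreg over thymic Treg. DESeq2 called 1 gene (Birc3) for the difference between thymic Treg and CD4SP cells. Leaving out 1 library gave 2 to 4 genes for WT rTreg over thymic Treg, the lowest without WT thymic Treg library 1. Calls over all genes varied too, over all the alternatives. They were 390 to 6108 for KO rTreg over thymic Treg (5721 in the main fit) and 1793 to 4514 in WT (4081). For KO thymic Treg over CD4SP they were 3206 to 7830 (7533), and for KO aTreg over thymic Treg 2321 to 5958 (5587). These ranges pool all the alternatives, so the share of all genes called in any single fit is not given. The same holds for the counts of KO against WT thymic Treg cells above. Whether the genes followed here lost calls more often than other genes in the same fit was not tested. The cause of these shifts was not tested either.

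The replicate block by number left all 160 values on the same side of the threshold. A block within genotype called Birc3 for the difference of KO effects between aTreg and thymic Treg cells (1 gene in place of 0, edgeR adjusted p = 0.0493) and Traf2 for WT aTreg over thymic Treg (0.17, adjusted p = 0.0261). Over all genes, KO against WT thymic Treg gave 1246 calls and 45 to 1717 over the alternatives. The same ranges were 0 to 62 for CD4SP (26), 6 to 48 for rTreg (18) and 0 to 15 for aTreg cells (4). Traf4 and Traf5 had the lowest counts of the 10 genes, and small changes in them are harder to detect at this depth.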
